A study of Mus musculus with 18 samples.

Results

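Egr1, Egr2, Egr3, Klf2, Klf4, Klf5, Klf6, Klf9, Klf10 and Klf15 are 10 zinc finger transcription factors of the Egr and Klf families, taken by symbol from a table of 20825 genes and followed across every group of a mouse kidney injury series. All 10 were in the table, 1 row each. The series sequenced total RNA, extracted with Trizol, from kidneys of C57BL/6 mice aged 11 weeks. In unilateral ischemia-reperfusion (UIR) the right renal pedicle, which carries the artery and vein, was clamped for 45 minutes and released while the left kidney stayed intact, so the mice kept 1 uninjured kidney. Sham mice had surgery without the clamp. Kidneys were taken 1, 3 or 21 days after surgery, with 3 libraries labelled as biological replicates in each of the 6 groups. The labels name neither which kidney was sequenced nor the sex of the mice.

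Egr proteins are immediate early factors: their genes are switched on within minutes by growth factors, stretch or stress through serum response factor, which binds CArG boxes, and need no new protein synthesis. They bind GC-rich sites, and the corepressors Nab1 and Nab2 hold them in check. Klf proteins share 3 zinc fingers at the C terminus and bind CACCC and GC boxes, but their other parts differ, so that members act as activators or repressors. In the kidney, Klf2 and Klf4 are known from endothelium and podocytes, Klf5 from collecting duct epithelium, Klf6 as an early gene of injured tubule, and Klf9 and Klf15 as glucocorticoid targets, the latter a regulator of amino acid breakdown and of podocyte differentiation. Klf10 is an early gene of transforming growth factor beta (TGF-beta).

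The stretch of 250 bases before the start site is shown for 5 members with matches to 3 motifs, those of serum response factor, of the Egr proteins themselves and of clock factors. They come from the RefSeq promoter table on build GRCm38.p6, from which stretches of 6 of the 10 members were taken, and not from the mm9 build named for the deposited values. Both strands were searched, for more motifs than the 3 marked, and the shares given are of 32851 such windows in the table. In Egr2, at chr10:67537619-67537868 on the plus strand, capitals mark a CArG box 72 to 63 bases before the start, a motif in 1.47% of windows.
Egr2: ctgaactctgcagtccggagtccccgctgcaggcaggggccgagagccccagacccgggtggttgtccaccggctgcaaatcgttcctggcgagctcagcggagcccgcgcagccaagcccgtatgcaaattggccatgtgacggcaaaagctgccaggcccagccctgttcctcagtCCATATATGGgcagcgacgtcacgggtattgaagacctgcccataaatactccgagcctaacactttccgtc
In Klf2 (chr8:72318812-72319061, plus strand) and Klf4 (chr4:55532476-55532725, minus strand) capitals mark matches to the Egr site GCGNGGGCG, present in 4.7% of windows.
Klf2: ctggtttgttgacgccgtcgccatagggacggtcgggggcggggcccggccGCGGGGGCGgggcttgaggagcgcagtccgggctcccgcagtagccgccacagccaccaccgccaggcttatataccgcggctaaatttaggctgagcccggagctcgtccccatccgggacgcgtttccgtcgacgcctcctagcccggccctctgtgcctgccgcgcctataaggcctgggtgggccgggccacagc
Klf4: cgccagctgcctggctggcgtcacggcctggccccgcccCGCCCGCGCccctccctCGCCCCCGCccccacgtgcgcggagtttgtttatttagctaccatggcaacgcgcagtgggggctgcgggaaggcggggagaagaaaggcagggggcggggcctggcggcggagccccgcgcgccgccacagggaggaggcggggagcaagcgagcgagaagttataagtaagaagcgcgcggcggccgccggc
Klf2 held 1 such match and Klf4 held 2. The Klf2 match and both Klf4 matches overlap GC boxes (GGGCGG, in 32.7% of windows). In Klf6 (chr13:5861239-5861488, plus strand) and Klf15 (chr6:90462326-90462575, plus strand) capitals mark the E-box CACGTG, which clock factors read and which 6.02% of windows hold.
Klf6: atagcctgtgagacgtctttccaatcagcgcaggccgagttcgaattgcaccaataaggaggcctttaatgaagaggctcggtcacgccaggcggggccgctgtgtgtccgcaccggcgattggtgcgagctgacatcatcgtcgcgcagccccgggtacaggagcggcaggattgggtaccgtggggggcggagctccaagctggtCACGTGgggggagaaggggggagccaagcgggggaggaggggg
Klf15: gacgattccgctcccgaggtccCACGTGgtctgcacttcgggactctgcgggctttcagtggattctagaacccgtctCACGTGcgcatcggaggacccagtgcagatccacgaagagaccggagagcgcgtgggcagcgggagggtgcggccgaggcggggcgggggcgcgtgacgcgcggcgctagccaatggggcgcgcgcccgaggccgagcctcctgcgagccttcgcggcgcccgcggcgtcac
Klf6 held 1 E-box, 43 to 38 bases before the start, and Klf15 held 2. Klf4 also held 1 E-box, 182 to 177 bases before the start, which is not marked above. The Klf15 stretch also holds an Egr site, 89 to 81 bases before the start, overlapping a GC box. Klf9, at chr19:23140976-23141225, held an AP-1 site (TGANTCA, in 6.75% of windows) and the core of the cAMP response element (TGACG, 17.8%). Egr2, Klf2, Klf4 and Klf15 held TGACG as well. A match is a run of letters and does not show that a factor was bound.

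Levels are in FPKM (fragments per kilobase of transcript, divided by the size of the library), a scale that takes account of gene length, so levels of different members can be set side by side. Differences are on the log2(FPKM + 1) scale, where 1 unit is a doubling for well expressed genes and less than the true change for genes near or under 1 FPKM. They were tested with limma over 14716 genes, with an adjusted p of 0.05 as the threshold. FPKM sums ran from 424207 to 549490 per library, and 12000 to 14156 genes reached 1 FPKM. No proximal tubule, thick limb, endothelial or podocyte marker was at 0 throughout a group, so the tissue read as kidney. In whole tissue, fewer cells of a type and less RNA per cell cannot be told apart, here and in all that follows.

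By days 3 and 21, 8 of the 10 factors were higher in UIR than in sham kidneys, and Klf9 and Klf15 were lower. At day 1, 5 members were higher and 2 lower in UIR than in sham kidneys, while Egr2, Egr3 and Klf2 missed the threshold. At this day 59.6% of all genes tested passed, 28.5% upwards and 31.1% downwards. At day 3, 8 were higher and 2 lower, where 75.5% of genes passed (57.6% higher, 17.9% lower). The count at day 21 was also 8 higher and 2 lower, where 80.8% of genes passed (60.7% higher, 20.1% lower). With so many genes called, and with Egr2, Egr3 and Klf5 in the test only through UIR libraries, the number of members called is not a result about the family. The median difference of the 10 members was 0.73, 1.82 and 2.32 at days 1, 3 and 21, beside medians over all genes tested of -0.03, 0.44 and 0.53.

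The shift of the median over all genes depended on scaling. With the deposited values 76.3% of calls at day 3 and 75.2% at day 21 were increases, but with median-of-ratios scaling these shares were 51.3% and 51.0%, and the medians over all genes were 0.03 at both days. Under that scaling the members stood at 6 higher and 2 lower at day 3, with Klf2 and Egr3 under the threshold, and at 8 higher and 2 lower at day 21. All 6 libraries of a day fell into separate UIR and sham ranges for 6 members at day 1 (61.3% of genes tested), for 10 at day 3 (78.7%) and for 10 at day 21 (84.3%). The plot of the day effects shows the differences side by side.

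**Figure D1:**
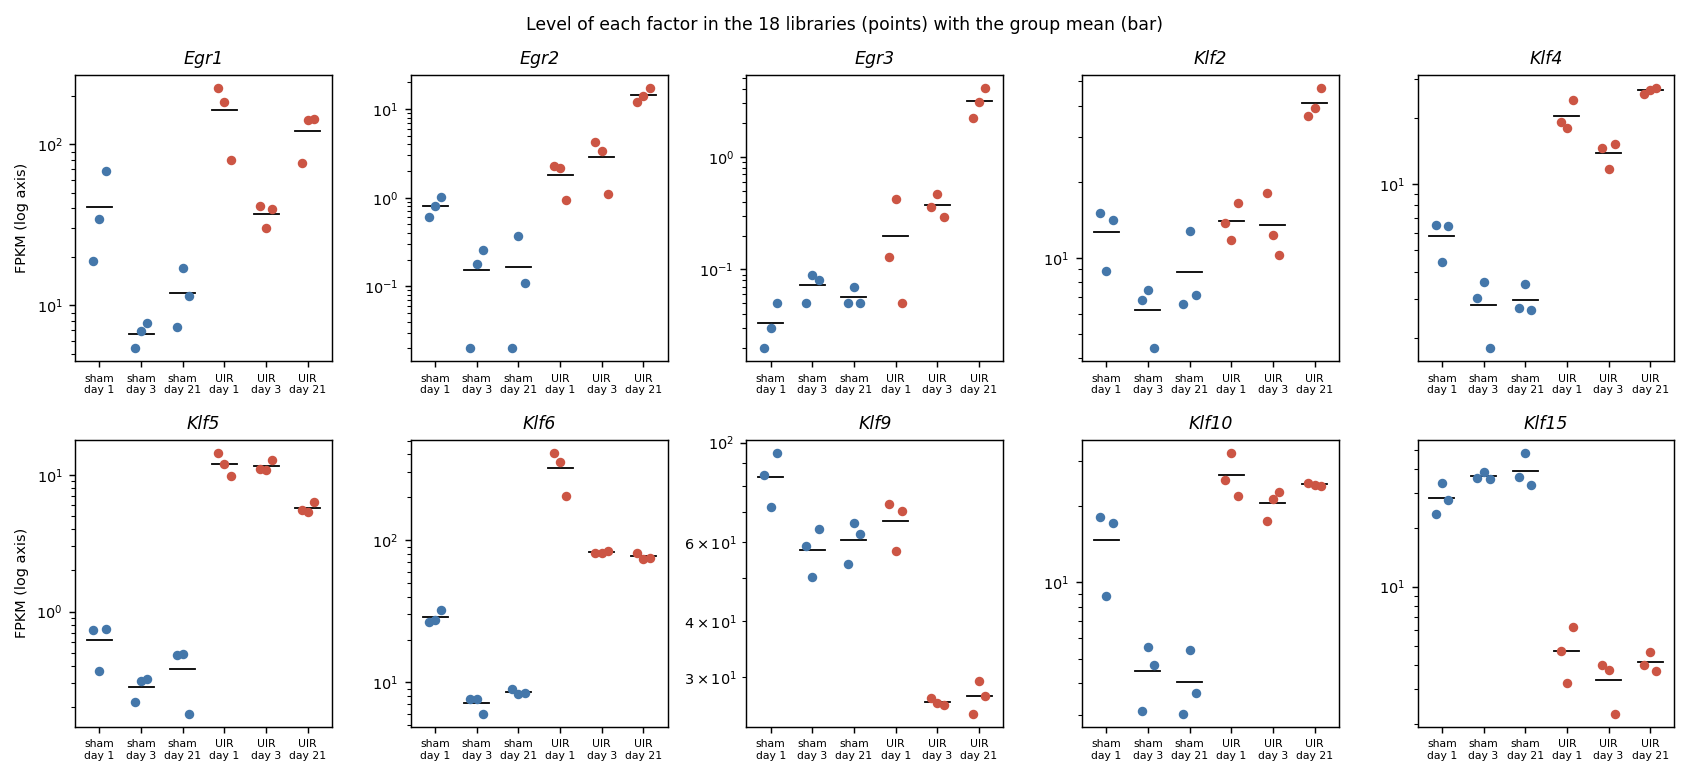
FPKM on a log axis of each of the 10 factors in the 18 libraries (points; blue for sham, red for UIR) with the mean of each group of 3 (black bar). In 8 panels the red points of days 3 and 21 lie above the blue points of the same day, and in the panels of Klf9 and Klf15 they lie below.

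**Figure D2:**
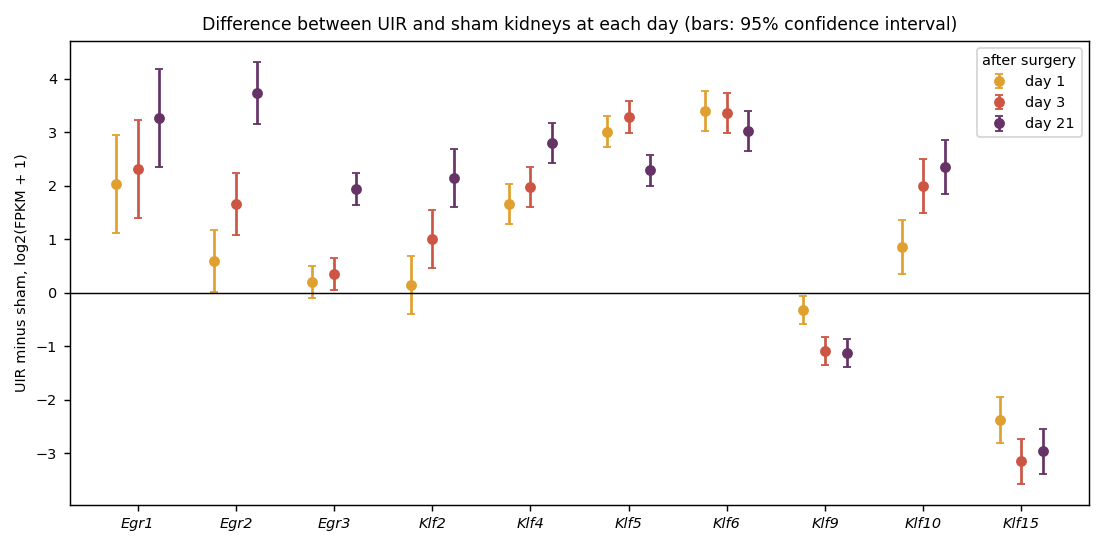
Difference between UIR and sham kidneys on the log2(FPKM + 1) scale for each factor at days 1, 3 and 21 (points), with 95% confidence intervals from limma (bars). Egr2 runs from 0.60 at day 1 to 3.73 at day 21, while Klf5 goes from 3.01 to 2.29 and Klf6 stays between 3.02 and 3.39.

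Egr1 (Entrez Gene 13653), the best known immediate early member, was raised at every day. In sham kidneys it read 18.9, 34.6 and 68.7 FPKM at day 1, 5.40, 6.86 and 7.70 at day 3, and 7.28, 17.0 and 11.4 at day 21. UIR kidneys read 226, 185 and 79.5 at day 1, 41.3, 30.1 and 39.8 at day 3, and 76.6, 141 and 145 at day 21. The groups of a day did not overlap, but within sham day 1 and within UIR day 1 the libraries were spread widely. The differences were 2.03 ± 0.43 (SE) at day 1, 2.31 ± 0.43 at day 3 and 3.26 ± 0.43 at day 21 (limma, adjusted p = 0.00073, 0.00014 and 3.2e-06). As ratios of group means these were 4.01, 5.57 and 10.2. In order of mean level, sham day 3 and sham day 21 did not differ beyond their spread, UIR day 3 and sham day 1 came next and could not be separated (limma, adjusted p = 0.94), and UIR day 21 and UIR day 1 were highest and could not be separated either (limma, adjusted p = 0.46). UIR day 1 replicate 3 had the lowest Egr1 of its group, and also the lowest proximal tubule marker sum (960 FPKM against 1889 and 2546) and the highest podocyte marker sum (243 against 114 and 95.3). Without it the day 1 difference was 2.48 (limma, adjusted p = 0.00013), and over the 6 fits that left out 1 library of that day it ran from 1.59, without sham replicate 1, to 2.50 (limma, adjusted p = 0.00013 to 0.0052).

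Egr2 (13654), a factor known from myelinating glia and from myeloid and lymphoid cells, was low in sham kidneys and highest in UIR kidneys at day 21. It read 0.61, 0.81 and 1.01 FPKM in sham kidneys at day 1, 0.02, 0.18 and 0.26 at day 3, and 0.02, 0.37 and 0.11 at day 21. UIR kidneys read 2.29, 2.18 and 0.95 at day 1, 4.21, 3.39 and 1.10 at day 3, and 12.1, 14.0 and 17.5 at day 21. The day 1 groups overlapped through UIR replicate 3, and the later days did not overlap. Egr2 reached 1 FPKM in 1 sham and 8 UIR libraries, so it passed the filter on low values only with the UIR kidneys, and its differences from sham are a description. At day 1 the difference of 0.60 ± 0.27 missed the threshold (limma, adjusted p = 0.07), and without UIR replicate 3 it was 0.84 (limma, adjusted p = 0.018). It was 1.66 ± 0.27 at day 3 and 3.73 ± 0.27 at day 21 (limma, adjusted p = 4.3e-05 and 3e-09), where 238 of the 14716 genes rose more. The day 21 mean was 87.3 times that of sham, a ratio that rests on sham values near the lowest the table holds (0.01 FPKM). UIR day 21 stood above every other group (limma, adjusted p = 9e-06 against UIR day 3, the next highest).

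Egr3 (13655), another immediate early member, known from neurons, muscle spindles and T cells, reached 1 FPKM only in the 3 UIR libraries of day 21 and passed the filter on low values through them. All 9 sham libraries lay between 0.02 and 0.09 FPKM. UIR kidneys read 0.13, 0.42 and 0.05 at day 1, 0.36, 0.47 and 0.29 at day 3, and 2.2, 3.05 and 4.11 at day 21. Values overlapped at day 1 and were apart at days 3 and 21. The difference was 0.20 ± 0.14 at day 1 (limma, adjusted p = 0.22), 0.35 ± 0.14 at day 3 (limma, adjusted p = 0.031) and 1.94 ± 0.14 at day 21 (limma, adjusted p = 2.6e-09). As the gene entered the test through the 3 libraries of UIR day 21, the last of these is a description. The day 3 call did not hold under median-of-ratios scaling, and it was lost without sham replicate 1, 2 or 3 or without UIR replicate 1 or 2 of that day (limma, adjusted p = 0.054 to 0.099).

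The macrophage marker list moved with Egr2 and Egr3. All 8 of its genes were higher in UIR kidneys at days 3 and 21, beside 57.6% and 60.7% of all genes tested. The summed level of the 8 was 55.1 to 68.8 FPKM in sham kidneys and 3397 to 4764 in UIR kidneys at day 21. At day 1 the sums were 75.6 to 90.5 in sham and 69.6 to 85.6 in UIR kidneys. Summed T and B cell markers went from 3.71 to 4.49 FPKM in sham to 70.4 to 90.1 in UIR kidneys at day 21. Per 100 FPKM of macrophage markers, a ratio chosen after the values were seen, Egr2 stood at 0.0363 to 0.579 in sham and 0.335 to 0.412 in UIR kidneys at day 21, and Egr3 at 0.0727 to 0.110 and 0.0609 to 0.0898. Relative to these markers the groups of day 21 overlapped for both genes. At day 1 Egr2 stood at 0.674 to 1.34 in sham and 1.36 to 2.95 in UIR kidneys, with no overlap. The part of infiltrating cells in the Egr2 and Egr3 levels was not tested.

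Among genes known as Egr1 targets, 12 of 13 were tested. At day 1, 6 were higher and 2 lower, with a median of 0.64. At day 3 and at day 21, 11 were higher and 1, Vegfa, lower, with medians of 2.22 and 2.04. Of all genes tested, 28.5%, 57.6% and 60.7% were higher at days 1, 3 and 21, with medians of -0.03, 0.44 and 0.53. With median-of-ratios scaling 10 targets were higher and 1 lower at days 3 and 21, with medians of 1.72 and 1.45. The largest day 21 differences were those of the matrix protein fibronectin, Fn1 (4.50, limma, adjusted p = 5e-11), of the hyaluronan receptor Cd44 (4.47, adjusted p = 4.1e-12), of Tgfb1 (3.15, adjusted p = 2.6e-11) and of the adhesion molecule Icam1 (2.91, adjusted p = 1.1e-10). Icam1 was lower than sham at day 1 (-0.98, limma, adjusted p = 5.8e-05). Fibroblast and smooth muscle markers moved with these genes: all 8 were higher at day 21, with a summed level of 50.7 to 67.3 FPKM in sham and 1021 to 1112 in UIR kidneys, and their part in the target genes was not tested. The vascular growth factor Vegfa, named after its values were seen as the only decrease at days 3 and 21, was lower at all 3 days (-0.77, -1.30 and -0.89).

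The corepressors Nab1 and Nab2 differed in time from each other. Nab1 was 20.4 ± 1.92 FPKM in UIR and 8.59 ± 0.605 in sham kidneys at day 1 (SD, n = 3 each), a difference of 1.16, and 0.51 at day 21 (limma, adjusted p = 1.1e-07 and 0.00022). Nab2, itself an Egr1 target, differed by 0.31 at day 1 and missed the threshold (limma, adjusted p = 0.06). At day 21 it was 30.6 ± 4.78 FPKM in UIR and 7.69 ± 0.725 in sham kidneys, a difference of 1.85 (limma, adjusted p = 3.4e-09). Under median-of-ratios scaling 1 of these 2 genes was called at day 21. From day 1 to day 21 the effect changed by -0.65 for Nab1 and by 1.54 for Nab2 (limma, adjusted p = 0.00082 and 3.6e-06).

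Klf6 (23849), a tumour suppressor induced early in injured epithelium, was the most abundant of the 10 in UIR kidneys at day 1. Sham kidneys read 26.4, 27.5 and 32.1 FPKM at day 1, 7.70, 7.68 and 6.05 at day 3, and 9, 8.27 and 8.48 at day 21. UIR kidneys read 409, 351 and 205 at day 1, 81.2, 81.0 and 84.4 at day 3, and 80.8, 74.2 and 74.9 at day 21. Every UIR library lay above every sham library, also across days. The differences were 3.39 ± 0.18, 3.36 ± 0.18 and 3.02 ± 0.18 at days 1, 3 and 21 (limma, adjusted p = 6.3e-10, 1.1e-10 and 2.3e-10), and at day 1 only 34 of the 14716 genes rose more. The order was sham day 3 and sham day 21, not separable (limma, adjusted p = 0.55), then sham day 1, then UIR day 21 and UIR day 3, not separable (limma, adjusted p = 0.65), and UIR day 1 on top.

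Klf5 (12224), a growth-promoting epithelial factor, went from trace levels to moderate ones. All 9 sham libraries lay between 0.18 and 0.75 FPKM. UIR kidneys read 14.5, 12 and 9.75 at day 1, 11.0, 10.9 and 12.8 at day 3, and 5.53, 5.37 and 6.29 at day 21. No UIR library came near the sham range, and the day 21 libraries were below those of the earlier days. Klf5 reached 1 FPKM in 0 of 9 sham and 9 of 9 UIR libraries, so it passed the filter through the UIR kidneys. The differences were 3.01 ± 0.14, 3.29 ± 0.14 and 2.29 ± 0.14 (limma, adjusted p = 2.3e-10, 9.4e-12 and 3.3e-10), and the ratios of means 19.5, 40.7 and 14.9. Because of how the gene entered the test, these differences from sham are a description. Principal cells of the collecting duct, where Klf5 is known, had summed markers of 246 to 299 FPKM in UIR and 295 to 352 in sham kidneys at day 1, 297 to 368 against 305 to 370 at day 3, and 134 to 213 against 238 to 277 at day 21. The ranges overlapped at days 1 and 3, and the UIR range was lower at day 21. The part of these cells in the Klf5 level was not tested.

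Klf4 (16600), a factor of differentiating epithelium, endothelium and podocytes, was raised at all 3 days. Sham kidneys read 6.51, 4.41 and 6.43 FPKM at day 1, 3.05, 3.61 and 1.80 at day 3, and 2.74, 3.51 and 2.67 at day 21. UIR kidneys read 19, 18 and 24 at day 1, 14.5, 11.7 and 15.2 at day 3, and 25.5, 26.8 and 27.4 at day 21. The UIR and sham ranges were far apart on every day. The differences were 1.66 ± 0.17, 1.98 ± 0.17 and 2.80 ± 0.17 (limma, adjusted p = 8e-07, 4.3e-08 and 4.9e-10). In order, sham day 3 and sham day 21 could not be separated, sham day 1 followed, and UIR day 3 was below UIR day 1 (limma, adjusted p = 0.015), which could not be separated from UIR day 21 (limma, adjusted p = 0.061).

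Klf2 (16598), the flow-responsive factor of endothelium, rose late. Sham kidneys read 15.0, 8.85 and 14.1 FPKM at day 1, 6.81, 7.43 and 4.38 at day 3, and 6.56, 12.7 and 7.14 at day 21. UIR kidneys read 13.8, 11.7 and 16.4 at day 1, 18, 12.3 and 10.3 at day 3, and 36.3, 39.3 and 47.3 at day 21. The ranges overlapped at day 1 and stood apart at days 3 and 21. The difference was 0.15 at day 1, with a 95% interval of -0.39 to 0.69 (limma, adjusted p = 0.63), 1.00 ± 0.25 at day 3 (limma, adjusted p = 0.002) and 2.14 ± 0.25 at day 21 (limma, adjusted p = 9.2e-07). The day 3 call did not hold under median-of-ratios scaling (0.52, limma, adjusted p = 0.076) or quantile normalization (0.48, limma, adjusted p = 0.098). UIR day 21 was above all other groups, and sham day 1, UIR day 3 and UIR day 1 could not be separated from one another.

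Endothelial markers moved with Klf2 at day 21. Of 10 such genes, 9 were higher in UIR kidneys at day 21 (60.7% of all genes tested), 5 at day 3 (57.6%), and 2 higher and 2 lower at day 1 (28.5% and 31.1%). Their summed level was 391 to 430 FPKM in UIR and 137 to 207 in sham kidneys at day 21, and 173 to 198 against 176 to 189 at day 1. Per 100 FPKM of these markers, again a ratio chosen after the values were seen, Klf2 stood at 9.28 to 11.0 in UIR and 4.79 to 6.14 in sham kidneys at day 21. Klf4 stood at 6.35 to 6.80 against 1.70 to 2.00 at day 21, and at 9.09 to 12.7 against 2.50 to 3.60 at day 1. Neither gene's ranges overlapped on this scale on the days named. Summed podocyte markers, another known site of Klf4, were 287 to 323 FPKM in UIR and 92.4 to 118 in sham kidneys at day 21, and their part in the Klf4 level was not tested.

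**Figure D3:**
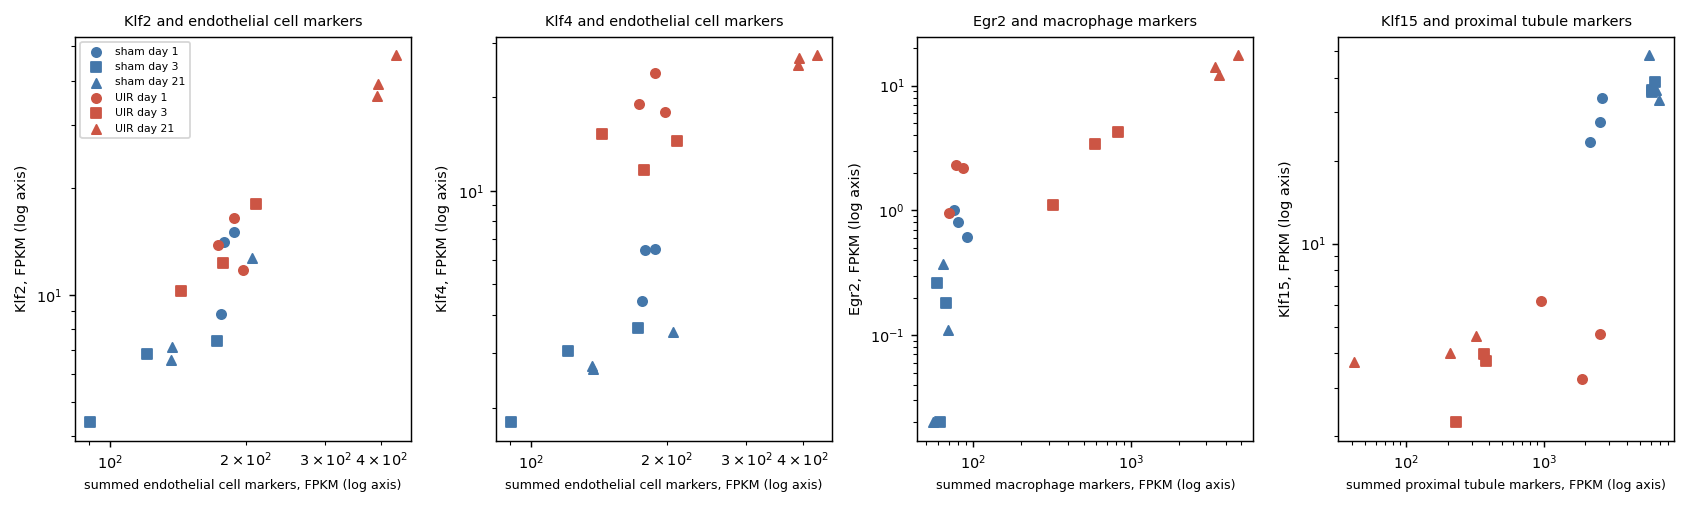
FPKM of Klf2, Klf4, Egr2 and Klf15 against the summed FPKM of a marker list, both on log axes, for 18 libraries (blue for sham, red for UIR; circles for day 1, squares for day 3, triangles for day 21). The red triangles lie to the right of the sham points for endothelial and macrophage markers and to the left for proximal tubule markers.

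Of 8 endothelial genes known as Klf2 or Klf4 targets, 7 were tested. At day 1, 5 were higher and 1 lower, at day 3, 6 were higher, and at day 21 all 7 were higher, with medians of 0.62, 1.45 and 2.84. Over all genes tested the shares higher were 28.5%, 57.6% and 60.7%, with medians of -0.03, 0.44 and 0.53. Median-of-ratios scaling left 6 of these targets higher at day 3 and 6 at day 21, with medians of 0.94 and 2.26. The largest at day 21 were the adhesion molecule Vcam1 (5.22, limma, adjusted p = 1.5e-13), the cell cycle inhibitor Cdkn1a (3.84, adjusted p = 1.1e-09), the vasoconstrictor endothelin, Edn1 (3.01, adjusted p = 2.1e-09) and the anticoagulant receptor thrombomodulin, Thbd (2.84, adjusted p = 2.3e-07). In endothelium Klf2 is known to repress Vcam1 and Edn1 and to induce Thbd, so the list holds targets of both signs. Vcam1 and Cdkn1a are also made by injured tubule cells.

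Klf10 (21847), first described as a TGF-beta inducible early gene, was raised at each day. Sham kidneys read 18, 8.80 and 17.1 FPKM at day 1, 3.10, 5.56 and 4.70 at day 3, and 3.04, 5.38 and 3.67 at day 21. UIR kidneys read 25.2, 32.2 and 21.7 at day 1, 17.3, 21.1 and 22.7 at day 3, and 24.6, 24.1 and 23.9 at day 21. All 9 UIR libraries lay between 17.3 and 32.2 FPKM, while sham libraries were high at day 1 and low later. The differences were 0.85 ± 0.24, 1.99 ± 0.24 and 2.35 ± 0.24 (limma, adjusted p = 0.0058, 1.4e-06 and 1.4e-07). The 3 UIR groups could not be separated in neighbouring steps of the order (limma, adjusted p = 0.4 and 0.71). Of 10 other early response genes of TGF-beta, 8, 8 and 10 were higher at days 1, 3 and 21, with medians of 0.84, 1.07 and 1.75. The shares of all genes tested were 28.5%, 57.6% and 60.7%, with medians of -0.03, 0.44 and 0.53. After median-of-ratios scaling 6 of these TGF-beta genes were higher at day 3 and 9 at day 21, with medians of 0.56 and 1.24. Among the largest at day 21 were the matrix protein Tgfbi (3.85, limma, adjusted p = 1.3e-10), the repressor Tgif1 (2.43, adjusted p = 4.7e-09) and the matricellular protein Ctgf (2.33, adjusted p = 9.7e-09). The fibroblast and smooth muscle markers given beside the Egr1 targets rose at the same day, and their part here was not tested.

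Klf15 (66277), the activator of amino acid catabolism genes, fell further than Klf9, the other member that fell. Sham kidneys read 23.4, 33.8 and 27.6 FPKM at day 1, 35.9, 38.4 and 35.5 at day 3, and 36.1, 48.2 and 33.1 at day 21. UIR kidneys read 4.71, 3.23 and 6.21 at day 1, 3.99, 3.75 and 2.25 at day 3, and 4.00, 4.62 and 3.72 at day 21. The lowest sham library was well above the highest UIR library. The differences were -2.37 ± 0.20, -3.14 ± 0.20 and -2.96 ± 0.20 (limma, adjusted p = 6.7e-08, 9.2e-10 and 1.1e-09). Within the UIR groups, and likewise within the sham groups, no neighbours in the order could be separated.

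Klf9 (16601), a glucocorticoid and thyroid hormone target that damps proliferation, was the most abundant member in sham kidneys. These read 84.8, 72.0 and 94.9 FPKM at day 1, 59.0, 50.2 and 64.2 at day 3, and 53.8, 66.1 and 62.7 at day 21. UIR kidneys read 72.9, 57.4 and 70.5 at day 1, 26.9, 26.4 and 26.1 at day 3, and 24.9, 29.5 and 27.3 at day 21. At day 1 the ranges overlapped, and at days 3 and 21 the UIR libraries lay tightly together below sham. The differences were -1.09 ± 0.12 at day 3 and -1.13 ± 0.12 at day 21 (limma, adjusted p = 5.9e-07 and 2.8e-07). The day 1 difference of -0.32 ± 0.12 (limma, adjusted p = 0.032) did not hold without sham replicate 1 or 3 (limma, adjusted p = 0.074 and 0.15), without UIR replicate 2 (limma, adjusted p = 0.16), or under median-of-ratios scaling (limma, adjusted p = 0.078).

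Proximal tubule markers moved with Klf15 and Klf9 between sham and UIR kidneys at days 3 and 21. All 8 were lower in UIR kidneys at days 3 and 21 (17.9% and 20.1% of all genes tested), and 3 of them at day 1 (31.1%). Their summed level was 2183 to 2671 FPKM in sham and 960 to 2546 in UIR kidneys at day 1, and 5863 to 6896 against 41.5 to 321 at day 21. Per 100 FPKM of these markers, Klf15 stood at 1.07 to 1.26 in sham and 0.171 to 0.647 in UIR kidneys at day 1, and at 0.480 to 0.822 against 1.44 to 8.96 at day 21. On that scale Klf15 was thus below sham at day 1 and above it at day 21. Klf9 stood at 2.69 to 3.89 in sham and 2.86 to 7.34 in UIR kidneys at day 1, with overlap. At day 21 it stood at 0.824 to 1.13 against 9.20 to 65.9. In sham kidneys Klf9 fell from day 1 to day 3, while these marker sums were 2183 to 2671 and then 6142 to 6431 FPKM. Day 21 sums were also lower in UIR kidneys for thick limb and distal tubule (429 to 674 against 1081 to 1212) and collecting duct (134 to 213 against 238 to 277). The part of tubule cell loss in the Klf15 and Klf9 levels was not tested.

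Of 10 amino acid catabolism genes known as Klf15 targets, 8 were tested and all 8 were lower at each day, with medians of -1.26, -1.72 and -2.0. Over all genes tested 31.1%, 17.9% and 20.1% were lower. All 8 targets stayed lower with median-of-ratios scaling, while rescaling to TPM left 7 lower at day 3. At day 21 the largest decreases were those of the lysine-degrading enzyme Aass (-4.57, limma, adjusted p = 2.6e-10), the tyrosine-degrading enzyme Hpd (-4.42, adjusted p = 2.4e-10), proline dehydrogenase, Prodh (-3.09, adjusted p = 1.8e-09) and the branched-chain dehydrogenase subunit Bckdha (-2.30, adjusted p = 4.3e-10). These enzymes are made mainly by tubule cells, as are the markers above. Among 12 genes that respond to glucocorticoids, as Klf9 and Klf15 do, none of those called at days 1 and 3 was lower. There were 8 higher at day 1, led by the metallothioneins Mt2 (3.41, limma, adjusted p = 1.5e-07) and Mt1 (2.67, adjusted p = 3.5e-07), Cebpd (2.38, adjusted p = 4.3e-06) and Zbtb16 (1.71, adjusted p = 3.2e-06), 5 at day 3, and 8 higher and 1 lower at day 21. The shares of all genes tested that were higher at these days were 28.5%, 57.6% and 60.7%. Under median-of-ratios scaling 5 of the 12 were higher and 3 lower at days 3 and 21. Fkbp5, a direct glucocorticoid target named here after its values were seen, did not pass at any day (limma, adjusted p = 0.91, 0.64 and 0.58).

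The difference of the UIR minus sham effect between days was itself tested, and the share of members called was near or below that of all genes. From day 1 to day 3 the effect grew for Egr2 and Klf10 and moved downwards for Klf9 and Klf15, which is 4 of 10 members beside 62.9% of genes tested (50.1% upwards, 12.7% downwards). Between days 3 and 21 it grew for Egr2, Egr3, Klf2 and Klf4 and shrank for Klf5, or 5 members beside 46.2% (26.1% upwards, 20.2% downwards). Over the whole span 7 members changed effect, beside 70.4% of genes (54.1% upwards, 16.3% downwards). Egr3 entered the test through UIR day 21, so its changes up to that day are a description. Egr2 and Klf5 passed the filter on low values only with UIR libraries, so their changes of effect are a description as well. For Egr1 and Klf6 no difference between days passed the threshold with the deposited values and all libraries. The Egr1 effect at day 21 exceeded that at day 1 by 1.22 (limma, adjusted p = 0.084). It passed after rescaling to TPM (1.45), with library weights (1.57), and without sham day 1 replicate 1 (1.66), sham day 21 replicate 2 (1.5), UIR day 1 replicate 1 (1.52) or UIR day 21 replicate 1 (1.52; limma, adjusted p = 0.018 to 0.046 over these fits). The Klf6 effect changed by -0.37 from day 1 to day 21 (limma, adjusted p = 0.19), and by -1.01 under median-of-ratios scaling (limma, adjusted p = 0.0039), -0.64 with a pseudocount of 5 (0.024), -0.45 with library weights (0.035) and -0.66 without UIR day 1 replicate 3 (0.00062). Over the same span the Klf15 effect changed by -0.58 and missed the threshold (limma, adjusted p = 0.074). It passed under median-of-ratios scaling (-1.14, limma, adjusted p = 0.001), quantile normalization (-1.42, limma, adjusted p = 0.00014) and a pseudocount of 5 (-0.49, limma, adjusted p = 0.035). It also passed without sham day 1 replicate 2 (-0.72) or UIR day 1 replicate 2 (-0.78; limma, adjusted p = 0.039 and 0.016).

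Within UIR kidneys the members followed different courses. From day 1 to day 3, 4 fell, with differences of -1.99 for Egr1, -1.90 for Klf6, -1.30 for Klf9 and -0.52 for Klf4 (limma, adjusted p = 0.00073, 1.6e-07, 1.7e-07 and 0.015), where 66.5% of genes changed (49.4% higher, 17.1% lower). The Klf4 step was lost without UIR day 1 replicate 3 or UIR day 3 replicate 2 (limma, adjusted p = 0.069 and 0.074). Under median-of-ratios scaling or quantile normalization more members were called over this span, as given in the last section, so which members were stable depended on scaling. Between days 3 and 21, 5 rose and 1 fell, beside 56.2% of genes (32.2% higher, 24% lower). The increases were 2.08 for Egr2, 1.64 for Egr1, 1.56 for Klf2 and 0.90 for Klf4, and the decrease was -0.90 for Klf5 (limma, adjusted p = 9e-06, 0.0042, 7.9e-05, 0.00038 and 4.3e-05). The increase of Egr3, 1.56, is again a description. Over the whole span 3 rose (Egr2, Egr3 and Klf2) and 3 fell (Klf5, Klf6 and Klf9), beside 74.3% of genes (53.1% higher, 21.2% lower). Egr1 therefore was high at day 1, lower at day 3 and high again at day 21, while Egr2, Egr3 and Klf2 had their highest levels at day 21.

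The sham group of day 1 stood apart from the later sham groups. From day 1 to day 3, 6 members fell in sham kidneys, beside 42.5% of genes tested (12.8% higher, 29.7% lower). The differences were -2.27 for Egr1, -1.87 for Klf6, -1.49 for Klf10, -0.92 for Klf2, -0.84 for Klf4 and -0.53 for Klf9 (limma, adjusted p = 0.00056, 9.2e-07, 0.00014, 0.0086, 0.0011 and 0.0024). By day 21, 5 of these 6, all but Klf2, fell (39.4% of genes, 12.3% higher and 27.2% lower), and the Egr1 decrease was lost without sham day 1 replicate 3 (-1.12, limma, adjusted p = 0.054) and the Klf9 decrease under median-of-ratios scaling (-0.30, limma, adjusted p = 0.084). Between sham day 3 and sham day 21, limma called 0 of 10 members (0.034% of genes) and 0 at an unadjusted p of 0.05. Other genes of the immediate early class moved the same way: 20 of 25 were lower in sham kidneys at day 3 than at day 1, with a median of -1.49 beside -0.12 over all genes, and 10 of 12 glucocorticoid-responsive genes were lower. Summed neutrophil markers were 27.1 to 80.03 FPKM in sham kidneys at day 1 and 12.2 to 15.8 at day 3. Over the same days 6 of 10 endothelial and 3 of 6 podocyte markers were lower, with sums of 176 to 189 and then 90.6 to 173 FPKM for endothelium and of 124 to 153 and then 61.9 to 112 for podocytes, while proximal tubule sums were 2183 to 2671 and then 6142 to 6431. The part of these cell types in the decreases was not tested.

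Set against the mean of the later sham groups, UIR kidneys of day 1 had 7 members higher and 1 lower, beside 71.5% of genes tested (39.6% higher, 32% lower). The differences were 5.14 ± 0.15 for Klf6, 3.96 ± 0.37 for Egr1, 3.28 ± 0.12 for Klf5, 2.46 ± 0.15 for Klf4, 2.40 ± 0.21 for Klf10, 1.24 ± 0.24 for Egr2 and 0.86 ± 0.22 for Klf2 (limma, adjusted p = 3.7e-13, 9.8e-08, 2.7e-12, 7.4e-10, 3.5e-08, 0.00019 and 0.0023). Klf15 fell by 2.79 (limma, adjusted p = 7.4e-10). Egr2 and Klf5 passed the filter on low values only with UIR libraries, so their differences from sham here are a description. Klf2 was called against the later sham groups and not against sham day 1. Klf9, lower than sham day 1, read 0.17 against the later groups (limma, adjusted p = 0.16). Both comparisons share the UIR day 1 libraries, and time after surgery differs in the second.

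**Figure D4:**
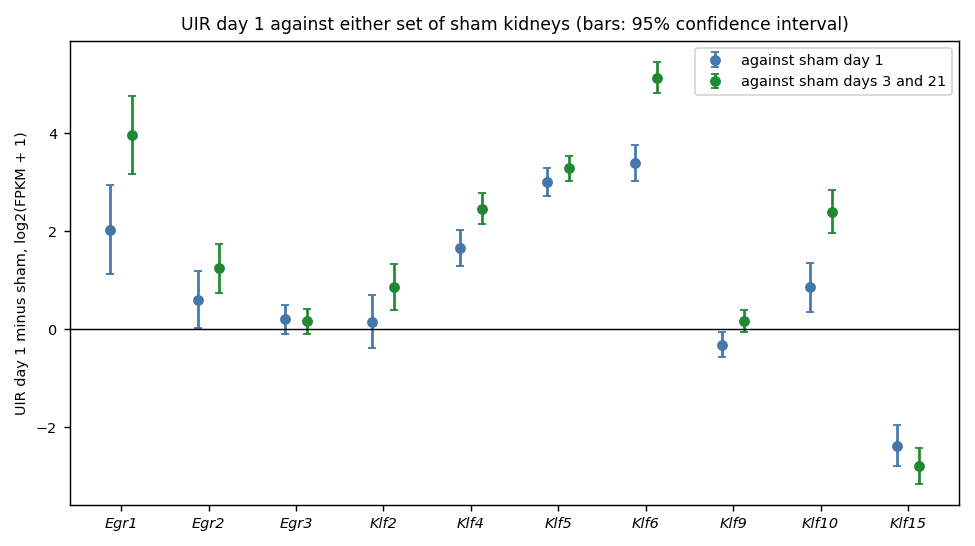
Difference of UIR kidneys at day 1 from sham kidneys of day 1 (blue) and from the mean of sham kidneys of days 3 and 21 (green) on the log2(FPKM + 1) scale, with 95% confidence intervals (bars), for each factor. Klf6 moves from 3.39 to 5.14 and Egr1 from 2.03 to 3.96, and Klf9 from -0.32 to 0.17.

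The other genes of the Egr, Klf and Sp families, 14 of 21 of which were tested, stood at 9 higher and 2 lower at day 1, 11 and 2 at day 3, and 11 and 3 at day 21, with medians of 0.34, 1.14 and 1.08. Of all genes tested, 28.5%, 57.6% and 60.7% were higher, with medians of -0.03, 0.44 and 0.53. Median-of-ratios scaling left these families at 9 higher and 2 lower at day 3 and 11 and 3 at day 21. Their medians were then 0.67 and 0.59. At day 21 the largest were Wt1, a podocyte factor of the Egr group (2.06, limma, adjusted p = 1.9e-06), Klf7 (1.93, adjusted p = 1.7e-09) and Klf11, the nearest relative of Klf10 (1.87, adjusted p = 1.5e-08), while Sp5 was lowest (-1.63, adjusted p = 2.8e-07). Klf1, a factor of red cell precursors named here after its values were seen, was lower at each day (-1.35, -1.28 and -1.06). Of 25 other immediate early genes, 18, 21 and 23 were higher at days 1, 3 and 21, with medians of 1.31, 1.79 and 1.80. With median-of-ratios scaling 17 of these were higher at day 3, and 21 higher and 1 lower at day 21, with medians of 1.39 and 1.38. At day 1 the largest were the AP-1 subunit Fosl1 (5.42, limma, adjusted p = 6.5e-10), the phosphatase Dusp5 (3.49, adjusted p = 4.5e-09), Atf3 (2.72, adjusted p = 4.1e-06) and Csrnp1 (2.71, adjusted p = 7.5e-07). Fosl1 differed by 0.36 at day 21 and missed the threshold (limma, adjusted p = 0.24).

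Over the 18 libraries, the genes most like each member in pattern were ranked by Pearson's r of log2(FPKM + 1) among 9397 genes with a mean of at least 5 FPKM. For Egr1 these were the immediate early genes Ier2 (r = 0.97) and Junb (0.96), and their r was 0.87 and 0.80 once each group's mean was removed. For Klf2 they were Pde2a (0.98) and the endothelial adhesion molecule Pecam1 (0.96), with 0.94 and 0.81 within groups. Egr2 was most like Pirb, a receptor of myeloid cells, and Slfn2 (0.99 each, with 0.78 and 0.77 within groups). Egr3 was most like Smoc2 and the chemokine Ccl8 (0.98 each, but 0.43 and 0.52 within groups), and it reached 1 FPKM only in UIR libraries of day 21. Klf15 was most like Prkcz and Acbd4 (0.98 each, but 0.53 and 0.18 within groups), and Klf9 most like Ndrg2 and Fth1 (0.96 each, with 0.83 and 0.31 within groups). The nearest genes were Nbl1 (0.99) and Kctd10 (0.98) for Klf4, Rab35 and Tdg (0.99 each) for Klf5, and Wipf2 and Morc2a (0.99 each) for Klf6. Within groups these were 0.82 and 0.64, 0.57 and 0.47, and 0.62 and 0.71. Klf10 was most like Litaf and the growth factor gene Pdgfa (0.97 each, with 0.72 and 0.76 within groups). The libraries share 6 groups, so r over all 18 includes the differences between group means. Among the members themselves the closest pair within groups was Klf2 and Klf4 (r = 0.75, 18 libraries).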

How the data were processed

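RNA of 18 kidney libraries was measured, 3 in each of 6 groups taken from the sample titles. The authors deposited 1 table of FPKM values. HISAT2 2.0.4, Bowtie2 2.2.5, RSEM 1.2.12 and mm9 are named without roles, per the submitters' processing notes, and the sources used here give no further scaling of the deposited FPKM. The files hold no counts, so the depth of each library is unknown and no counting interval is given. For 27 genes the symbol had become a date and was recovered from the Entrez ID. No library pair held identical values. The sources used here do not state strand handling, so reads of overlapping genes may not be told apart.

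Genes with at least 1 FPKM in at least 3 libraries were kept (14716). Values were analysed as log2(FPKM + 1), a pseudocount of 1. All 18 libraries entered 1 linear model with 6 group means, fitted with limma 3.58.1 under R 4.3.3 with a variance trend (residual df 12). Tests were two-sided, with Benjamini-Hochberg adjustment over all genes tested and a threshold of 0.05, for 13 comparisons. With 3 libraries a side the smallest exact permutation p is 0.1, so permutation was not used. Each gene had its own limma test, with an estimate of spread that draws on all genes tested. Levels are mean ± SD and differences ± SE. The p-values measure the spread between the labelled replicates.

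The members, gene lists and tests were chosen with earlier results of these data known. All 10 members are named, with up to 4 genes of each list by size of change in the comparison described, the corepressors, and the 2 genes most like each member. A gene that this rule would name is not reported here. Alternatives were other pseudocounts (0.1 and 5), no filter, a filter of 5 FPKM, rescaling to TPM, median-of-ratios scaling, quantile normalization, library weights, only the groups compared, a replicate block and leaving out each library. Promoter stretches are from RefSeq.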

Additional observations from a re-analysis of the deposited data

Results flagged for a closer look

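The values below are differences in the UIR minus sham effect between days that passed limma's test (log2 scale, adjusted over all genes tested). Of all genes, 62.9% passed between days 1 and 3, 46.2% between days 3 and 21 and 70.4% between days 1 and 21, so the number of factors is no result about the family. Egr3 entered the test only through UIR day 21 and its values are a description. Egr2 and Klf5 passed the filter on low values only with UIR libraries, so their values below are a description as well. Each comparison of 2 days rests on 12 libraries.

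Between days 1 and 3 the effect on Egr2 changed by 1.06 ± 0.39 (SE, limma, adjusted p = 0.025), on Klf10 by 1.14 ± 0.34 (adjusted p = 0.0081), on Klf9 by -0.77 ± 0.17 (adjusted p = 0.0011) and on Klf15 by -0.77 ± 0.28 (adjusted p = 0.026). The Klf9 change held in each fit that left out 1 library. The Egr2 change was lost without sham day 1 replicate 3, sham day 3 replicate 1, UIR day 1 replicate 3, or UIR day 3 replicate 1 or 2 (limma, adjusted p = 0.056 to 0.076). The Klf15 change was lost without sham day 1 replicate 1, UIR day 1 replicate 3 or UIR day 3 replicate 3 (limma, adjusted p = 0.069 to 0.075). Median-of-ratios scaling left Egr2 at 0.79 and Klf10 at 0.62 (limma, adjusted p = 0.096 and 0.14), quantile normalization left them at 0.55 and 0.65 (limma, adjusted p = 0.24 and 0.1), a pseudocount of 5 left Egr2 at 0.37 (limma, adjusted p = 0.076), and rescaling to TPM left Klf15 at -0.56 (limma, adjusted p = 0.11).

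From day 3 to day 21 the effect grew by 2.07 ± 0.39 for Egr2, 1.58 ± 0.20 for Egr3, 1.14 ± 0.36 for Klf2 and 0.82 ± 0.25 for Klf4, and it changed by -1 ± 0.19 for Klf5 (limma, adjusted p = 0.00046, 1.3e-05, 0.017, 0.013 and 0.00066).

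Over the whole span the effect grew by 3.13 ± 0.39 for Egr2, 1.99 ± 0.36 for Klf2, 1.73 ± 0.20 for Egr3, 1.5 ± 0.34 for Klf10 and 1.14 ± 0.25 for Klf4 (limma, adjusted p = 2.9e-06, 0.00013, 1.3e-06, 0.00092 and 0.00067). It changed by -0.72 ± 0.19 for Klf5 and by -0.81 ± 0.17 for Klf9 (limma, adjusted p = 0.0038 and 0.00056). The Klf4 change was 0.54 under median-of-ratios scaling (limma, adjusted p = 0.067) and the Klf5 change -0.49 after rescaling to TPM and -0.45 with a pseudocount of 0.1 (limma, adjusted p = 0.09 and 0.32). Library weights left the Klf15 change between days 1 and 3 at -0.54 (limma, adjusted p = 0.058). The day 1 effects rest on sham kidneys that stood above both later sham groups for Egr1, Klf4, Klf6, Klf9 and Klf10. Sham Klf2 was lower at day 3 than at day 1 (-0.92, limma, adjusted p = 0.0086), but its day 21 difference missed the threshold (limma, adjusted p = 0.13). Sham Egr2 read lower at days 3 and 21 than at day 1, without overlap, and missed the threshold (limma, adjusted p = 0.067 and 0.076). For these members, time after surgery and state of the sham kidney cannot be told apart.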

How the results depend on the processing

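Of the single-member values under alternatives, 1658 kept direction and side of the threshold, 38 lost and 32 gained a call, and 25 changed sign. For the difference in effect between days 3 and 1, Klf6 turned to 0.086 (pseudocount 0.1) and 0.31 (TPM), Egr1 to -0.064 (pseudocount 5), -0.26 (median-of-ratios) and -0.031 (quantile), Klf4 to -0.18 and -0.20, Klf5 to -0.12 and -0.10 (both in that order), and Egr3 to -0.061 (quantile). Between days 21 and 3, Klf15 turned to -0.13 (quantile) and Klf9 to 0.072 (library weights), and at day 1 Klf2 to -0.061 (library weights). Without 1 library Klf2 at day 1 ran from -0.067 to 0.28, the change between days 1 and 3 from -0.19 to 0.72 for Egr1 and from -0.32 to 0.17 for Klf6, and that between days 3 and 21 from -0.12 to 0.060 for Klf9 and from -0.011 to 0.34 for Klf15. None of these sign changes was past the threshold. Members with an effect that differed between days 3 and 1 numbered 2 under median-of-ratios scaling and 2 under quantile normalization, against 4. UIR members changed from day 1 to day 3 numbered 7 and 7, against 4, and sham members changed from day 1 to day 21 numbered 9 with library weights, against 5. The cause was not tested. Leaving out 1 library gave 6 to 8 members called at day 1, 9 to 10 at day 3 and 10 to 10 at day 21, 3 to 5, 5 to 5 and 7 to 8 for differences between days 1 and 3, 3 and 21, and 1 and 21, 6 to 7, 0 to 0 and 4 to 7 for sham, 3 to 5, 6 to 6 and 6 to 7 for UIR over the same spans, and 8 to 9 against the later sham groups. Same-numbered libraries did not deviate together (correlations from -0.07 to 0.11, 2 of 9 over 0.1), and a replicate block changed 1 call, for Klf2 between days 1 and 3 (0.85, limma, adjusted p = 0.018). With a replicate block Egr1 at day 1 stood at 2.03 (limma, adjusted p = 0.0041). Depth per library is unknown, which limits what can be said of Egr2, Egr3 and Klf5 in sham kidneys.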
